A study of Mus musculus with 34 samples.

Results

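The acute response of the mouse colon to the third rectal dose of trinitrobenzene sulfonic acid (TNBS) was compared with its response to the second, 2 days after each dose. The comparison set the 5 arrays of TNBS colitis day 23 (2.25 mg) against the 5 of day 16 (1.5 mg), which were 10 of the 34 arrays of the time course, and used every probe with a value above log2(5) on at least 4 arrays, 21110 of 25697 probes. All mice were female BALB/c, 8 weeks old at the start, and distal colon was hybridised to Illumina MouseRef-8 arrays, 1 mouse per array. TNBS was put on the skin on day 0 to sensitise the mice and then given rectally in ethanol on day 7 (0.75 mg), day 14 (1.5 mg) and day 21 (2.25 mg), so that the day 16 mice had received 2 rectal doses and the day 23 mice 3. The 2 days therefore differed in the dose, in the number of doses and in the age of the mice at once, and these cannot be told apart. Day 21 and day 28 (5 mice each), each 7 days after the second and the third dose, gave the matching late comparison in other mice, and 4 mice were labelled healthy controls. None of the 34 arrays is labelled as coming from a mouse given ethanol alone.

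TNBS is a hapten: the ethanol opens the epithelial barrier, the compound binds to tissue proteins, and T cells that were primed through the skin respond to the modified proteins in the colon wall. Interferon gamma from such T cells acts on epithelium and macrophages to switch on the chemokines Cxcl9 and Cxcl10 and the genes of MHC class II antigen presentation, whereas interleukin 1 and interleukin 6 drive the acute phase proteins and bring in neutrophils. Interleukin 4 and interleukin 13 turn macrophages towards an alternative state marked by arginase and chitinase-like proteins, which goes with tissue repair.

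All levels below are log2 values of the deposited normalised signal, set to no less than log2(5), which prints as 2.3, and mice are always given in the order 1 to 5. A probe was called above background when it exceeded the 95th percentile of 1326 olfactory, vomeronasal and trace amine receptor probes on the same array (22.3 to 30.4 in linear units), which 48.5% to 52.8% of probes did. The epithelial genes Vil1, Cdx1, Cdx2 and Krt20 and the hindgut gene Hoxd13 were above background on 34 of 34 arrays, Hoxb13 on 5, and the liver genes Ahsg and Serpina1a on 0. Ttr, also looked for as a liver gene, was above background on 34 of 34 arrays. Alb and Apoh did not pass the probe filter and were not tested. Several arrays carried transcripts of another tissue. The mean level of 16 exocrine pancreas genes lay 4.61 log2 units above the healthy mean in day 23 mouse 1 and 8.67 above it in day 23 mouse 3, and likewise 7.79 and 6.04 above it in day 21 mice 2 and 3, against at most 1.2 in any other mouse. The same list averaged between 5.4 and 5.7 in the day 16 mice and 9.8, 6.0, 13.8, 5.6 and 5.1 in the day 23 mice, and its trypsinogens Prss2 and Try4 were at the floor of 2.3 in all 5 day 16 mice and in day 23 mice 2, 4 and 5. Skeletal muscle genes stood more than 3 log2 units above healthy in day 9 mice 2, 3 and 5 and in day 21 mouse 5, but in none of the 10 arrays compared here. Day 23 mouse 1 was low in B cell, T cell and MHC class II genes. In the fit with array weights, which are lower where an array strays further from its group, it had the lowest weight of all 34 arrays. That weight was 0.386, and the next lowest was 0.644, in day 9 mouse 3. The part of the pancreatic signal in the results was not tested, so the main lists are given with and without the 4 arrays that carried it, which left day 23 with mice 2, 4 and 5.

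The colon 2 days after the third dose could hardly be distinguished from the colon 2 days after the second by a gene-wise test. With limma over all 34 arrays, 0 probes (0%) were higher and 1 (0.00474%) was lower on day 23 at a Benjamini-Hochberg adjusted p under 0.05. At an unadjusted p under 0.05, 628 probes (2.97%) were higher and 685 (3.24%) lower, and the 5 values of day 23 lay wholly above those of day 16 for 98 probes (0.464%) and wholly below for 89 (0.422%). Acute counts of list members below are to be read beside these shares. Other settings of the fit called 0 to 4 probes higher. The same fit called 418 probes (1.98%) higher and 409 (1.94%) lower on day 16 than in healthy colon, and 737 (3.49%) higher and 742 (3.51%) lower on day 23, which share the healthy mice. The half-width of the 95% interval of the difference was 0.525 at the median probe, and for 63.8% of probes the whole interval lay between -1 and 1, while for the rest it reached beyond these limits. Between mice, the median standard deviation was 0.299 on day 16 and 0.365 on day 23, and 58.9% of probes varied more on day 23. Pairs of day 16 mice correlated at 0.966 to 0.971 over probes and pairs of day 23 mice at 0.943 to 0.969. The 1 probe that passed the test belongs to Arf4, a small GTPase of vesicle traffic, and it is named after its values were seen. It read 4.0, 3.9, 3.9, 4.0 and 4.5 on day 16 and 2.6, 2.3, 2.3, 2.3 and 2.3 on day 23 (adjusted p = 0.00898). The groups did not overlap, but no value was above background on either day, so no size is given. Without the arrays that carried pancreatic transcripts, 4 probes (0.0189%) were higher and 1 (0.00474%) lower, among them 1 probe of the T cell costimulator Icos and 1 of the putative glycosyltransferase Glt1d1, whose day 23 means (3.91 and 3.42) were below background, while the brightest Icos probe gave +0.01 with all 10 mice and +0.31 without those arrays.

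The late comparison, made on other mice 7 days after the same 2 doses, gave more calls. On day 28 against day 21, 31 probes (0.147%) were higher and 34 (0.161%) lower, and at an unadjusted p under 0.05 the counts were 1457 (6.9%) and 1450 (6.87%). The mast cell protease Cma2 rose by +3.21 (adjusted p = 0.0456) and the lysophospholipid transporter Mfsd2a by +2.13 (0.015), whereas the lipoprotein lipase inhibitor Angptl4 (-2.47, adjusted p = 0.015) and the adaptor protein Grb7 (-0.98, 0.00654) fell. Without the 4 arrays that carried pancreatic transcripts, 9 probes (0.0426%) were higher and 15 (0.0711%) lower, and Mfsd2a, Angptl4 and Grb7 passed the test (adjusted p = 0.0377, 0.0224 and 0.0164) but Cma2 did not (0.0599). In the acute comparison the same genes gave +1.14, +0.47, +0.24 and -0.19, none past the test. The late counts moved when single mice were left out, between 0 and 116 higher and between 2 and 142 lower. Leaving out day 21 mouse 5, which carried muscle transcripts, left 0 higher and 4 lower. Without day 28 mouse 1, which did not, 1 was higher and 2 lower, and the cause was not tested. A direct test of the acute difference less the late difference called 1 probe (0.00474%) higher and 0 (0%) lower, with 1117 and 1259 at an unadjusted p under 0.05. That probe belongs to Dpysl3, a cytoskeletal regulator of neurons and stromal cells. Dpysl3 read 7.4, 6.9, 7.0, 7.1 and 7.2 on day 16 and 7.6, 7.6, 7.7, 7.4 and 7.3 on day 23, and 7.8, 7.8, 7.7, 7.7 and 8.1 on day 21 and 6.8, 7.4, 7.2, 7.2 and 7.3 on day 28. The acute difference was +0.41, 95% interval 0.16 to 0.67, adjusted p = 0.651, and Dpysl3 fell late (-0.62, adjusted p = 0.0271), and the 2 differences were apart by +1.04 (adjusted p = 0.0478). Both calls were lost without the pancreas-carrying arrays. A further test set the third flare (day 23 less day 21) against the second (day 16 less day 14) and called 0 probes higher (0%) and 0 lower (0%), with 473 and 533 at an unadjusted p under 0.05.

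**Figure D1:**
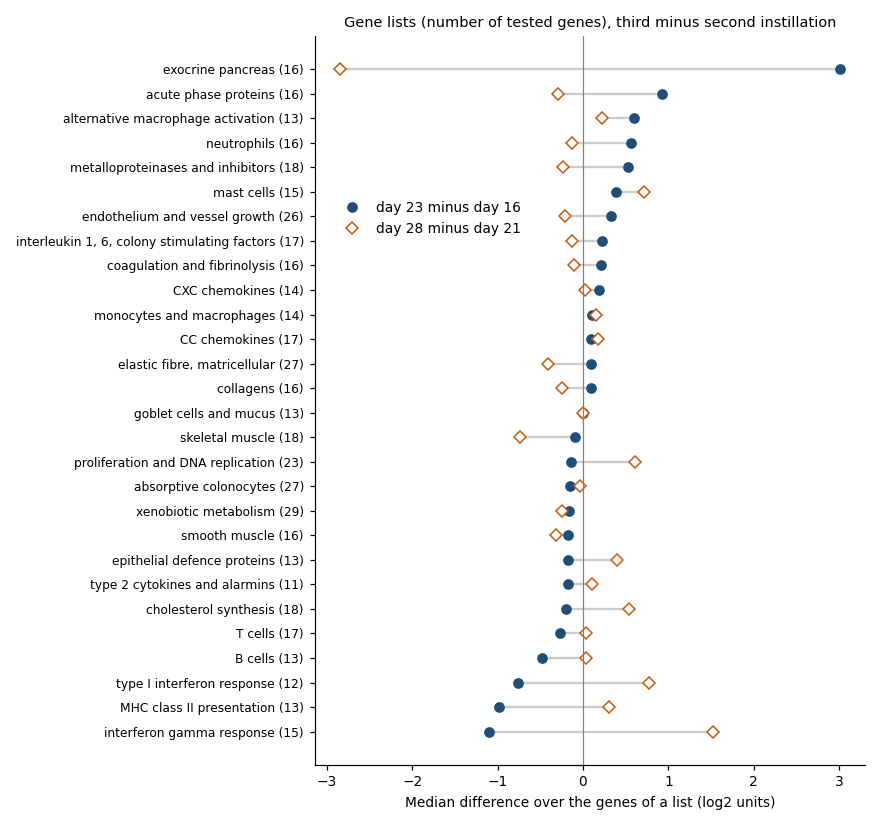
Median log2 difference of 28 gene lists (rows) for day 23 less day 16, 2 days after dosing, and day 28 less day 21, 7 days after dosing (x axis, log2 units). The interferon gamma list lies at -1.10 in the acute comparison and at 1.53 in the late one, and the exocrine pancreas list at 3.01 and -2.85.

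Genes switched on by interferon gamma had the lowest median of all 58 lists with all 10 mice, and values that split the day 23 mice. All 15 tested genes of the interferon gamma list had a lower mean on day 23, with a median difference of -1.10 against -0.01 over all 14010 genes, and 10 of 15 had an unadjusted p under 0.05, but 0 passed the adjusted test. The type I interferon list gave a median of -0.77, with 12 of 12 genes lower in mean and 5 of 12 at an unadjusted p under 0.05. Both groups of mice overlapped for every gene of the 2 lists. Promoter sequences of 3 of these genes are shown first. Interferon-stimulated response elements contain GAAA, any 2 bases, then GAAA, and this was searched on both strands in the 300 bases around the start of each gene (RefSeq, GRCm38.p6). It was found in 6 of the 8 type I interferon genes with a single listed promoter (75%) and in 4 of the 10 interferon gamma genes (40%), against 312 of 9123 promoters of all tested genes (3.42%). The gamma-activated site TTCNNNGAA was found in 2 of 8 (25%) and 3 of 10 (30%), against 693 of 9123 (7.6%). A match describes the letters only. The promoters of Oas1a (chr5:120907476-120907775, minus strand), Cxcl10 (chr5:92348840-92349139, minus strand) and Igtp (chr11:58199306-58199605, plus strand) are printed because these were the 3 genes of the lists with the smallest unadjusted p among those with the interferon-stimulated match, which the capitals mark. The gamma-activated match, 1 in Oas1a and 1 in Igtp, is left in lower case:
Oas1a: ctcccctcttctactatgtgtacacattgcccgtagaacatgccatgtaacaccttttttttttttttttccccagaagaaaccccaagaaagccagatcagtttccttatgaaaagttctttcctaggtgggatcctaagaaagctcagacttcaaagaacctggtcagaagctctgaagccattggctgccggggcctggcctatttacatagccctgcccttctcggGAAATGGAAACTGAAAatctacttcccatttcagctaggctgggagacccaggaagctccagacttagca
Cxcl10: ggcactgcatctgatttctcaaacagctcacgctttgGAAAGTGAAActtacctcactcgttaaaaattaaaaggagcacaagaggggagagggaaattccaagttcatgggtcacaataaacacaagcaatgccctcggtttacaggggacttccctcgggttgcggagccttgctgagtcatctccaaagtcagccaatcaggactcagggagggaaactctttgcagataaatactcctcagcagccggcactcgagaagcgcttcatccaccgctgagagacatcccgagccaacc
Igtp: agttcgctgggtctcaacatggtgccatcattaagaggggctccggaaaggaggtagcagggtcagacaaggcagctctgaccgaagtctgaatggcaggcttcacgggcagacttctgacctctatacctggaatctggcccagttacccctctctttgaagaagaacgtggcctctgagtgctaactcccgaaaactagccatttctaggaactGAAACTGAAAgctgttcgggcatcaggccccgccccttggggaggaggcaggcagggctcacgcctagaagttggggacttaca

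Cxcl9 and Cxcl10 draw activated T cells into inflamed tissue. Cxcl10 read 6.6, 8.9, 7.3, 6.7 and 8.3 on day 16 and 4.9, 2.3, 4.1, 6.7 and 7.2 on day 23. Day 23 mice 1, 2 and 3 lay below every day 16 mouse, while mice 4 and 5 lay within the day 16 range, and the difference was -2.50, 95% interval -4.07 to -0.94, adjusted p = 0.678. Cxcl9 read 8.3, 11.2, 9.0, 8.9 and 10.2 on day 16 and 4.2, 3.2, 5.5, 8.9 and 10.4 on day 23, with the same 3 mice low and a difference of -3.08, 95% interval -5.38 to -0.78, adjusted p = 0.743. The immunity-related GTPase Igtp, which acts on pathogen vacuoles, read 10.48, 12.66, 11.04, 11 and 11.74 on day 16 and 7.37, 7.92, 7.69, 11.19 and 11.67 on day 23, and its difference was -2.22, 95% interval -3.80 to -0.64, adjusted p = 0.728. Mice 1, 2 and 3 were again the low ones, and mice 4 and 5 lay within the day 16 range. The tryptophan-degrading enzyme Ido1 read 11.15, 14.30, 11.74, 12.19 and 12.34 on day 16 and 8.52, 8.11, 7.23, 12.02 and 12.71 on day 23 (-2.62, 95% interval -4.82 to -0.43, adjusted p = 0.77). Oas1a, which makes the activator of the antiviral RNase L, read 5.1, 5.6, 4.5, 5.1 and 5.0 on day 16 and 3.4, 2.3, 2.7, 5.0 and 4.2 on day 23 (-1.54, 95% interval -2.50 to -0.58, adjusted p = 0.678), and here day 23 mouse 5 was below the day 16 mice as well. The immunoproteasome subunit Psmb8 differed by -1.55, -2.67 to -0.42 and the transcription factor Irf1 by -0.73, -1.29 to -0.17 (95% intervals). Interferon gamma itself was close to background at 4.9, 4.2, 4.4, 4.7 and 4.9 on day 16 and 3.4, 3.1, 2.3, 4.3 and 4.9 on day 23 (-1.03, 95% interval -2.27 to 0.20, adjusted p = 0.856).

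Taking the mean of each list per mouse, less the day 16 mean, the interferon gamma list stood at -2.47, -2.35, -2.38, -0.24 and 0.29 in day 23 mice 1 to 5 and the type I list at -0.82, -1.63, -1.53, -0.16 and -0.13. The low mice were therefore 1, 2 and 3, of which mice 1 and 3 carried pancreatic transcripts and mouse 2 did not. In the healthy mice the interferon gamma list averaged 7.8 to 8.9, a range that the day 16 mice (8.4 to 9.9) overlapped. Day 23 mice 1, 2 and 3 (6.6, 6.7 and 6.7) fell short of every healthy mouse, whereas mice 4 and 5 had 8.8 and 9.3. Set against healthy colon, the list had a median of +0.96 for day 16 and -0.45 for day 23. In both comparisons 0 of its 15 genes were called. With the pancreas-carrying arrays left out, the medians were -0.55 for interferon gamma and -0.64 for type I genes, now the lower, Cxcl10 differed by -2.15 and Oas1a by -1.22, and 1 gene in each list was lower at an unadjusted p under 0.05, against 2.47% of all probes lower and 3.02% higher in that fit. On day 28 against day 21 the interferon gamma list had a median of +1.53. In it 11 of 15 genes were higher at an unadjusted p under 0.05, against 6.9% of all probes, and 0 passed the adjusted test. Cxcl9 read 7.8, 5.0, 8.1, 8.5 and 4.7 on day 21 and 11.2, 10.2, 10.2, 9.8 and 10.9 on day 28. The type I list had a late median of +0.77 and 1 called gene, the viral tethering protein Bst2, which rose by +1.49 (adjusted p = 0.0271) from 6.4, 6.2, 5.8, 6.0 and 6.5 to 7.8, 7.4, 7.9, 7.5 and 7.7. The late groups did not overlap for Bst2, but it did not pass without the pancreas-carrying arrays (adjusted p = 0.112). In the acute comparison Bst2 read 6.8, 8.1, 7.0, 7.5 and 7.5 on day 16 and 7.0, 6.1, 6.4, 6.7 and 7.3 on day 23 (-0.68, 95% interval -1.29 to -0.08, adjusted p = 0.77). Day 21 mice 2 and 5, which carried pancreatic and muscle transcripts respectively, had the lowest Cxcl9 on that day. Day 21 mouse 3, which also carried pancreatic transcripts, read 8.1, and a link was not tested.

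**Figure D2:**
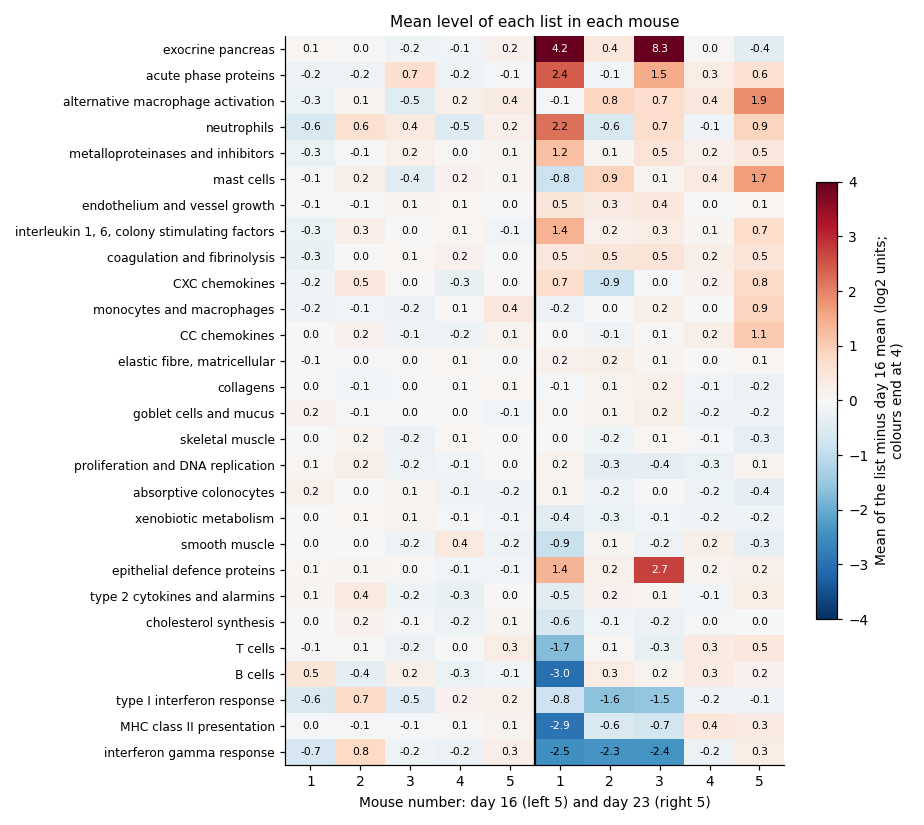
Heatmap of the mean log2 level of 28 gene lists (rows) in the 5 day 16 and 5 day 23 mice (columns, left and right of the line), less the day 16 mean of the list, given by colour and number in log2 units. The interferon gamma list is at -2.47, -2.35 and -2.38 in day 23 mice 1, 2 and 3 and at -0.24 and 0.29 in mice 4 and 5, and the B cell list is low in mouse 1 alone (-3.01).

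MHC class II genes present antigen to CD4 T cells and follow interferon gamma in most cell types. Their median difference was -0.99, with 11 of 13 genes lower in mean, 2 at an unadjusted p under 0.05 and 0 called. The invariant chain Cd74 read 13.50, 13.83, 13.65, 13.47 and 13.96 on day 16 and 9.45, 12.66, 12.25, 13.96 and 14.18 on day 23 (-1.18, 95% interval -2.50 to 0.14, adjusted p = 0.844). Mouse 1 stood lowest, mice 2 and 3 lay below the day 16 range, and mice 4 and 5 were at or above its top. H2-Aa, an alpha chain of the class II molecule, read 6.8, 6.8, 6.9, 6.3 and 7.3 on day 16 and 4.4, 5.7, 4.7, 7.3 and 7.0 on day 23 (-1.01, 95% interval -1.94 to -0.08, adjusted p = 0.778), and the peptide-loading subunit H2-DMb1 differed by -1.36, 95% interval -2.76 to 0.04, adjusted p = 0.801. Without the pancreas-carrying arrays the median of the list was -0.08 and Cd74 differed by -0.08, close to the median of all genes.

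Lymphocyte genes were lowest in day 23 mouse 1. In this whole tissue, fewer cells of a type and less RNA per cell cannot be told apart. The B cell list had a median of -0.48 and 0 of 13 genes at an unadjusted p under 0.05, and its mean per mouse stood at -3.01, 0.30, 0.15, 0.34 and 0.18 in day 23 mice 1 to 5. The Fc receptor-like protein Fcrla read 8.5, 7.6, 8.4, 7.8 and 8.1 on day 16 and 2.3, 8.6, 8.1, 8.4 and 8.6 on day 23 (-0.87, 95% interval -2.50 to 0.75, adjusted p = 0.943), at the floor in mouse 1 and within or above the day 16 range in the other mice. The T cell list had a median of -0.27 (-0.18 with genes below background set at their bound), with means of -1.74, 0.06, -0.31, 0.32 and 0.46. Against day 16 means of -0.25 to 0.29, mice 1 and 3 lay below, mouse 2 within and mice 4 and 5 above. The T cell receptor subunit Cd3d read 6.8, 6.9, 6.5, 7.3 and 7.6 on day 16 and 3.8, 6.3, 6.4, 7.0 and 7.7 on day 23 (-0.79, 95% interval -1.71 to 0.13, adjusted p = 0.854), and day 23 mice 1, 2 and 3 lay below every day 16 mouse. Without mouse 1 and the other pancreas-carrying arrays the medians were +0.36 for B cells and +0.28 for T cells, and the late medians were 0.03 and 0.04.

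Acute phase proteins, which hepatocytes and inflamed epithelium and stroma make in response to interleukin 6, had a median of +0.92, or +0.51 with genes below background set at their bound, and 13 of 16 genes were higher in mean on day 23, 5 of them at an unadjusted p under 0.05. None passed the adjusted test. The protease inhibitor Serpina3n read 10.67, 10.56, 10.65, 10.58 and 10.62 on day 16 and 13.38, 10.98, 11.47, 10.73 and 11.46 on day 23. The groups did not overlap, and the difference was +0.99, 95% interval 0.18 to 1.79, adjusted p = 0.767. The iron-binding protein Lcn2, made by neutrophils and inflamed epithelium, read 4.4, 4.6, 8.2, 6.1 and 4.1 on day 16 and 13.1, 4.6, 10.6, 5.9 and 6.8 on day 23 (+2.71, 95% interval 0.11 to 5.32, adjusted p = 0.797). Mice 1 and 3 set the day 23 mean, and mice 2, 4 and 5 lay inside the day 16 range. The pentraxin Ptx3 read 3.4, 4.9, 4.3, 4.3 and 2.6 on day 16 and 7.9, 4.2, 6.0, 4.9 and 4.8 on day 23 (+1.65, 95% interval 0.16 to 3.14, adjusted p = 0.778) and the lipopolysaccharide-binding protein Lbp differed by +0.87, 95% interval 0.06 to 1.67, adjusted p = 0.787. The haemoglobin scavenger haptoglobin (Hp) read 7.5, 7.28, 9.21, 7.04 and 7.81 on day 16 and 10.82, 7.27, 9.96, 8.05 and 8.97 on day 23 (+1.25, 95% interval -0.66 to 3.15, adjusted p = 0.907). The mean of the list stood at 2.41, -0.10, 1.48, 0.30 and 0.61 in the 5 day 23 mice, and without the pancreas-carrying arrays the median was +0.29, with 0 genes at an unadjusted p under 0.05 and Lcn2 at +0.27. The late median was -0.30.

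Neutrophil genes gave a median of +0.56 (+0.49 with bounds), with 13 of 16 higher in mean and 1 at an unadjusted p under 0.05 in each direction. The calprotectin subunit S100a8, abundant in neutrophils, read 5.8, 10.1, 8.9, 6.1 and 8.0 on day 16 and 13.5, 7.1, 9.9, 7.7 and 11.1 on day 23. Mouse 1 of day 23 was highest, and the groups overlapped widely (+2.08, 95% interval -0.92 to 5.08, adjusted p = 0.896). The chemokine receptor Cxcr2 read 2.3, 4.4, 2.3, 2.3 and 2.3 on day 16 and 5.2, 2.6, 4.5, 3.8 and 5.2 on day 23 (adjusted p = 0.77), with no day 16 mouse above background and the day 23 mean too close to it for a fold. Trem1, a receptor that amplifies myeloid activation, lay lower, at 6.0, 5.2, 5.3, 5.6 and 6.5 on day 16 and 5.0, 4.6, 4.7, 4.7 and 3.9 on day 23, where the groups did not overlap (-1.14, 95% interval -2.10 to -0.18, adjusted p = 0.77). The C-type lectin Clec4e did not overlap either, at 4.48, 5.95, 5.84, 4.99 and 5.75 on day 16 and 6.37, 5.99, 6.02, 5.98 and 6.14 on day 23 (+0.70, 95% interval -0.05 to 1.44, adjusted p = 0.82). The list averaged 2.21, -0.60, 0.71, -0.14 and 0.89 in the day 23 mice, and its median without the pancreas-carrying arrays was +0.10.

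The interleukin 1, interleukin 6 and colony stimulating factor list gave a median of +0.22 (+0.16 with bounds), with 15 of 17 genes higher in mean and 3 at an unadjusted p under 0.05. Interleukin 1 alpha (Il1a), an alarm signal of damaged cells, was at the floor in all 5 day 16 mice and read 6.5, 4.2, 4.4, 2.9 and 4.4 on day 23 (adjusted p = 0.689), which was too close to background for a fold. Oncostatin M (Osm), which acts on stroma through its receptor Osmr, read 4.9, 6.2, 5.5, 5.0 and 4.3 on day 16 and 7.7, 5.8, 6.4, 6.1 and 7.2 on day 23 (+1.46, 95% interval 0.08 to 2.84, adjusted p = 0.794), and Osmr read 7.7, 8.0, 8.2, 7.8 and 8.0 on day 16 and 8.8, 8.0, 8.4, 8.5 and 8.4 on day 23 (+0.51, 95% interval 0.18 to 0.84, adjusted p = 0.689). Interleukin 1 beta differed by +0.87, -0.44 to 2.18 and interleukin 11, a stromal cytokine of the interleukin 6 family, by +1.48, -0.24 to 3.20 (95% intervals). Of the last, day 23 mouse 1 had 10.7 and no other day 23 mouse more than 7.1.

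Genes of alternatively activated macrophages had higher means with and without the pancreas-carrying arrays. The list gave a median of +0.60, with 10 of 13 higher in mean and 3 at an unadjusted p under 0.05, and a median of +0.84 without those arrays. Arginase 1 (Arg1), which turns arginine into ornithine, read 7.2, 7.6, 9.6, 8.4 and 8.9 on day 16 and 11.9, 10.2, 10.5, 10.4 and 12.7 on day 23. Every day 23 mouse was above every day 16 mouse, and the difference was +2.79, 95% interval 1.01 to 4.56, adjusted p = 0.678 (a 6.9-fold higher mean). In healthy colon Arg1 was at 2.3, and on day 9, 2 days after the first dose, it ranged from 9.4 to 12.1. Chil3, a chitinase-like protein secreted by such macrophages, read 2.3, 4.8, 3.1, 6.4 and 5.9 on day 16 and 8.5, 8.5, 7.3, 6.0 and 11.9 on day 23. Mice 1, 2, 3 and 5 were above the day 16 range and mouse 4 was within it (+3.94, 95% interval 1.62 to 6.27, adjusted p = 0.609). The mannose receptor Mrc1 read 9.4, 9.2, 9.6, 9.5 and 9.9 on day 16 and 9.3, 10.7, 10.5, 9.8 and 11.1 on day 23 (+0.72, 95% interval 0.15 to 1.29, adjusted p = 0.767). Without the 4 arrays Arg1 differed by +2.75 (unadjusted p = 0.00908) and did not pass the adjusted test. The list mean stood at -0.07, 0.85, 0.67, 0.44 and 1.86 in day 23 mice 1 to 5. Cd163, the receptor by which macrophages take up haemoglobin with haptoglobin, read 7.5, 7.4, 7.2, 8.3 and 7.2 on day 16 and 9.7, 9.2, 9.4, 8.1 and 9.4 on day 23. Mice 1, 2, 3 and 5 stood above every day 16 mouse, and mouse 4 stood below the highest of them (+1.64, 95% interval 0.84 to 2.43, adjusted p = 0.45). With the arrays that carried skeletal muscle transcripts left out of the fit, Cd163 passed the test (adjusted p = 0.0472). The monocyte and macrophage list, which includes Cd163, had a median of +0.11 (+0.05 with bounds), with 1 of 14 genes, Cd163 itself, at an unadjusted p under 0.05, and the complement subunit C1qb differed by +0.31, -0.10 to 0.73.

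Chemokine means differed in both directions. Eotaxin (Ccl11), which attracts eosinophils, read 8.6, 8.1, 8.1, 8.0 and 8.1 on day 16 and 10.3, 9.0, 9.6, 8.7 and 9.3 on day 23, with no overlap and a difference of +1.22, 95% interval 0.56 to 1.87, adjusted p = 0.522. Without the pancreas-carrying arrays it was +0.85. The macrophage chemokine Ccl9 read 10.15, 10.26, 10.21, 10.44 and 10.40 on day 16 and 11.32, 10.93, 11.20, 10.61 and 12.03 on day 23, with no overlap (+0.92, 95% interval 0.38 to 1.47, adjusted p = 0.609), and platelet factor 4 (Pf4) read 8.93, 8.86, 8.97, 9.36 and 9.27 on day 16 and 10.78, 9.68, 9.8, 9.44 and 11.10 on day 23, also without overlap (+1.08, 95% interval 0.32 to 1.85, adjusted p = 0.728). The neutrophil and monocyte attractant Ccl3 was near the floor in the day 16 mice and read 9.4, 2.3, 4.9, 3.4 and 5.8 on day 23, at least 1.38-fold higher in mean (adjusted p = 0.743). Ccl28, an epithelial chemokine that attracts IgA plasma cells, read 7.5, 7.5, 7.5, 7.2 and 6.7 on day 16 and 5.2, 6.4, 6.3, 6.8 and 6.5 on day 23 (-1.01, 95% interval -1.53 to -0.50, adjusted p = 0.522). Day 23 mice 1, 2, 3 and 5 lay below all day 16 mice and mouse 4 just above the lowest. The CC list had a median of +0.10 (0 with bounds) with 3 of 17 genes higher and 1 lower at an unadjusted p under 0.05, and the CXC list +0.19 (+0.03 with bounds) with 3 and 2 of 14.

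**Figure D3:**
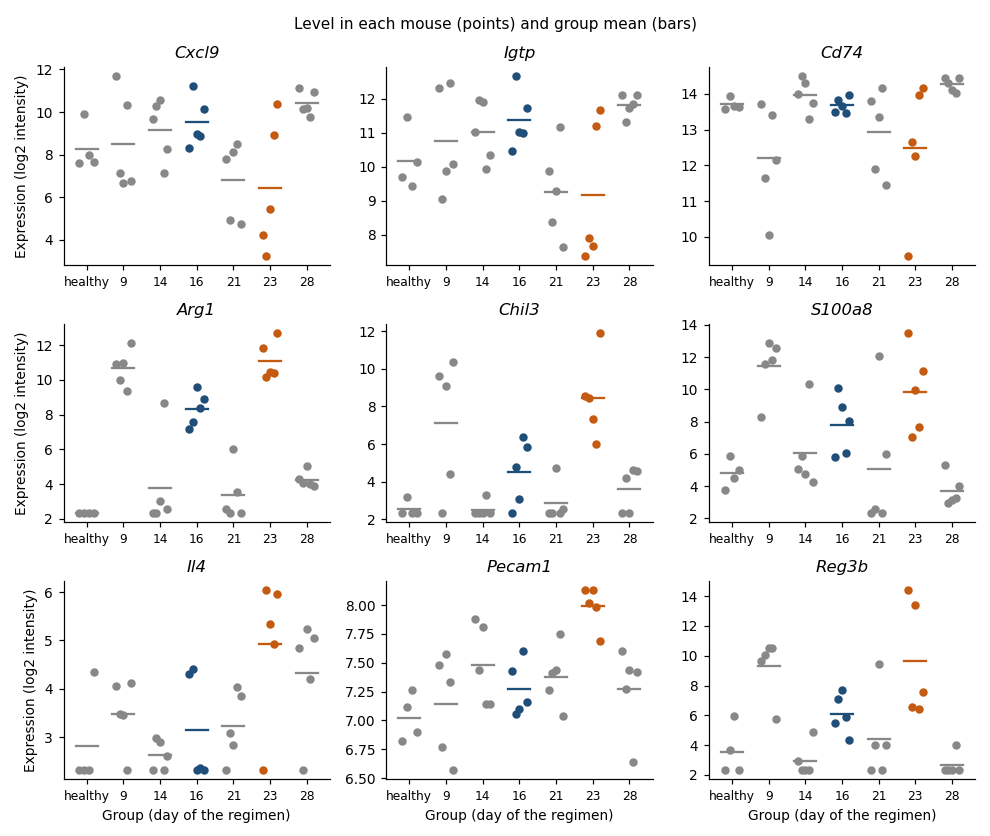
Log2 level of 9 selected genes in each mouse (y axis, log2 units, floor at 2.32) by group (x axis: 4 healthy mice, then 5 mice on each of days 9, 14, 16, 21, 23 and 28), with bars at the group means, day 16 in blue and day 23 in orange. Arg1 and Pecam1 of day 23 lie wholly above day 16, and Cxcl9 splits the day 23 mice between 5.5 or lower (mice 1 to 3) and 8.9 or higher (mice 4 and 5).

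Genes of matrix breakdown and of the clotting system were higher in mean. The metalloproteinase list gave a median of +0.53 (+0.43 with bounds) with 6 of 18 genes higher and 1 lower at an unadjusted p under 0.05. Stromelysin 2 (Mmp10) read 7.94, 8.16, 9.99, 7.0 and 8.58 on day 16 and 12.51, 8.62, 9.79, 9.97 and 10.78 on day 23 (+2.00, 95% interval 0.70 to 3.30, adjusted p = 0.689), and Mmp3, stromelysin 1, differed by +1.14, 95% interval 0.21 to 2.07, adjusted p = 0.767. The inhibitor Timp1 read 8.69, 8.8, 9.28, 8.49 and 8.64 on day 16 and 11.75, 8.93, 9.74, 9.08 and 9.96 on day 23 (+1.11, 95% interval 0.06 to 2.17, adjusted p = 0.795), with mouse 1 highest and mice 2 and 4 inside the day 16 range. A further inhibitor, Timp4, read 5.0, 5.01, 6.18, 5.68 and 5.36 on day 16 and 4.59, 5.0, 4.91, 4.7 and 2.35 on day 23, with no overlap and lower values on day 23 (-1.14, 95% interval -1.94 to -0.34, adjusted p = 0.728). The median without the pancreas-carrying arrays was +0.27. In the coagulation and fibrinolysis list 13 of 16 genes were higher in mean and 5 at an unadjusted p under 0.05, and the median was +0.21 with all arrays (+0.095 with bounds) and +0.21 without those carrying pancreas. Coagulation factor X (F10) read 2.4, 2.3, 2.9, 2.9 and 5.6 on day 16 and 6.6, 4.9, 4.8, 5.1 and 6.7 on day 23 (+2.37, 95% interval 0.95 to 3.78, adjusted p = 0.609). Day 16 mouse 5 alone lay in the day 23 range. Day 16 mice 1 to 4 were below background, so the size of the F10 difference is uncertain. The urokinase receptor Plaur read 6.6, 6.6, 6.7, 6.6 and 6.5 on day 16 and 8.3, 7.0, 6.8, 7.4 and 7.2 on day 23, with no overlap (+0.73, 95% interval 0.20 to 1.26, adjusted p = 0.728). Factor VII (F7), which starts clotting with tissue factor, was above background in 0 day 16 mice and 1 day 23 mouse, so no fold is given (adjusted p = 0.609).

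Vessel genes differed less, and mainly in day 23 mice 1, 2 and 3. In the endothelium list 23 of 26 genes were higher in mean on day 23 and 5 at an unadjusted p under 0.05, with a median of +0.33 (+0.32 with bounds). The list mean stood at 0.48, 0.32, 0.43, 0.03 and 0.07 in day 23 mice 1 to 5, so that mice 4 and 5 lay within the day 16 range of -0.09 to 0.11. The endothelial adhesion molecule Pecam1 read 7.4, 7.1, 7.1, 7.6 and 7.2 on day 16 and 8.1, 8.0, 8.1, 8.0 and 7.7 on day 23, with no overlap (+0.72, 95% interval 0.32 to 1.12, adjusted p = 0.528). Plvap, of the diaphragms of fenestrated capillaries, read 9.75, 9.89, 9.81, 9.93 and 9.81 on day 16 and 10.34, 10.25, 10.26, 9.96 and 10.04 on day 23, also with no overlap (+0.33, 95% interval 0.07 to 0.60, adjusted p = 0.767). The median was +0.16 without the pancreas-carrying arrays, and the late median was -0.22. The matrix list gave a median of +0.09 (+0.01 with bounds), with 16 of 27 genes higher in mean and 5 at an unadjusted p under 0.05. Activin A (Inhba), a TGF-beta family ligand, read 6.46, 6.06, 6.42, 6.29 and 6.37 on day 16 and 9.27, 6.46, 7.09, 7.82 and 7.1 on day 23, with mouse 1 highest and mouse 2 level with the top of day 16 (+1.23, 95% interval 0.51 to 1.95, adjusted p = 0.609). Tenascin C (Tnc), a matrix protein of healing wounds, read 9.34, 9.63, 9.62, 9.35 and 9.52 on day 16 and 11.55, 9.8, 10.22, 9.68 and 9.98 on day 23, and the proteoglycan decorin (Dcn) read 13.2, 13.1, 13.4, 13.4 and 13.3 on day 16 and 13.8, 13.7, 13.6, 13.5 and 13.6 on day 23. Mouse 1 was highest for both, and neither overlapped between days (+0.76, 0.23 to 1.28 and +0.33, 0.09 to 0.57). The late median of the matrix list was -0.41, with 13 of 27 genes lower at an unadjusted p under 0.05, against 6.87% of all probes. Collagens gave a median of +0.09, with 11 of 16 higher in mean, and Col1a1, a chain of type I collagen, differed by +0.33, -0.16 to 0.82.

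Of the 15 mast cell genes tested, 9 were called higher than in healthy colon on day 16 and 9 on day 23, against 1.98% and 3.49% of all probes. The day 23 mice differed widely, with mouse 1 lowest and mouse 5 highest in the mean of the list. The protease Mcpt1 read 11.53, 11.64, 10.54, 10.66 and 11.08 on day 16 and 8.25, 12.58, 10.45, 11.91 and 12.99 on day 23, against a healthy mean of 3.5. Mouse 1 was lowest of all 10 mice and mice 2, 4 and 5 were highest (+0.15, 95% interval -1.29 to 1.58, adjusted p = 1). Tryptase Tpsb2 read 4.1, 4.2, 4.4, 5.5 and 4.5 on day 16 and 4.6, 6.3, 5.6, 5.2 and 7.1 on day 23 (+1.19, 95% interval 0.19 to 2.19, adjusted p = 0.77). The list mean stood at -0.84, 0.88, 0.11, 0.37 and 1.66, and its median was +0.38 (+0.19 with bounds) with 1 of 15 genes at an unadjusted p under 0.05. Without the pancreas-carrying arrays the median was +1.01 and 10 of 15 were higher at an unadjusted p under 0.05, against the 3.02% of all probes. That fit holds 3 day 23 mice, of which mice 2 and 5 had the highest means of this list. The late median was +0.71, with Cma2 called. Interleukin 4 (Il4), the leading cytokine of type 2 responses, was not above background on day 16 and read 4.3, 4.4, 2.3, 2.4 and 2.3 on day 16 and 2.3, 6.0, 5.3, 4.9 and 6.0 on day 23. It was at least 1.17-fold higher in mean on day 23 (adjusted p = 0.728) and at the floor in mouse 1. Without the pancreas-carrying arrays it did not pass the test either (adjusted p = 0.392). Interleukin 13 (Il13), its relative, read 4.1, 4.8, 2.3, 4.2 and 5.2 on day 16 and 4.2, 3.8, 2.8, 2.3 and 4.9 on day 23 (-0.50, 95% interval -1.66 to 0.66, adjusted p = 0.964), and the alarmin Il33 differed by +0.77, 95% interval 0.08 to 1.46, adjusted p = 0.77. In the whole list of type 2 cytokines and alarmins, 4 of 11 genes were higher in mean and 7 lower. Its median was -0.18 (0 with bounds), with 2 genes higher and 0 lower at an unadjusted p under 0.05.

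Regenerating proteins, which inflamed epithelium and the acinar pancreas both make, were highest in the 2 mice with pancreatic transcripts. Reg3b, an antibacterial lectin, read 5.5, 7.1, 7.7, 5.9 and 4.4 on day 16 and 14.4, 6.6, 13.4, 6.4 and 7.5 on day 23 (+3.57, 95% interval 0.77 to 6.37, adjusted p = 0.759). Mice 1 and 3 stood above all other mice, and mice 2, 4 and 5 lay within the day 16 range. Reg1 read 2.3, 2.3, 2.3, 2.3 and 2.3 on day 16 and 12.4, 2.3, 14.8, 3.6 and 2.3 on day 23, at least 5.22-fold higher in mean (adjusted p = 0.762), and Reg3a was at the floor in all but the same 2 mice. Without them and the other 2 arrays Reg3b differed by +0.74 and Reg3a by 0. The acinar enzymes went the same way, with carboxypeptidase Cpa1 at 2.42, 2.32, 2.32, 3.5 and 4.24 on day 16 and 9.44, 4.69, 14.03, 4.32 and 2.32 on day 23 and a list median of +3.01 (+1.32 with bounds), 6 of 16 genes being higher at an unadjusted p under 0.05 and 0 called. The list's median was -0.06 without the pancreas-carrying arrays and -2.85 in the late comparison, in which 2 of the day 21 mice carried the signal. The whole epithelial defence list had a median of -0.18, and of +0.17 without the pancreas-carrying arrays. Angiogenin 4 (Ang4), a Paneth and goblet cell microbicide, read 14.66, 14.77, 13.35, 14.70 and 14.21 on day 16 and 8.81, 15.02, 14.98, 14.52 and 14.45 on day 23, so that mouse 1 alone had a level like that of healthy colon (9.0), and the resistin-like goblet cell protein Retnlb differed by -0.16, -1.24 to 0.91.

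Epithelial metabolism gave lower means. In the xenobiotic list 23 of 29 genes were lower in mean and 6 at an unadjusted p under 0.05, with a median of -0.17. Glutathione transferase Gsta3 read 9.4, 9.6, 9.4, 9.8 and 9.2 on day 16 and 8.4, 8.8, 8.3, 9.1 and 8.6 on day 23, with no overlap (-0.85, 95% interval -1.29 to -0.41, adjusted p = 0.522), and the carboxylesterase Ces2e read 7.06, 7.34, 7.68, 6.93 and 6.98 on day 16 and 6.89, 6.31, 6.11, 6.8 and 6.27 on day 23, also with no overlap (-0.72, 95% interval -1.26 to -0.19, adjusted p = 0.743). Absorptive colonocyte genes gave a median of -0.15 with 1 of 27 higher and 2 lower at an unadjusted p under 0.05, and the butyrate transporter Slc5a8 read 12.08, 12.09, 12.50, 11.97 and 11.97 on day 16 and 10.42, 12.14, 11.95, 11.93 and 11.32 on day 23 (-0.57, 95% interval -1.06 to -0.08, adjusted p = 0.77). Goblet cell genes gave a median of -0.001, with 0 of 13 at an unadjusted p under 0.05, and the trefoil factor Tff3 differed by +0.11, -0.13 to 0.34. In cholesterol synthesis 18 of 18 genes were lower in mean on day 23, the lowest at -0.34, with a median of -0.19 and 2 at an unadjusted p under 0.05. Without the pancreas-carrying arrays the median was -0.02. Late, the median was +0.54 and 4 of the 18 genes were higher and passed the test, against 0.147% of all probes. Among them was Hsd17b7, an enzyme late in the pathway, which read 9.4, 9.2, 9.4, 9.7 and 9.1 on day 21 and 10.1, 9.9, 9.9, 9.9 and 10.1 on day 28 (+0.66, adjusted p = 0.0122). None of the 4, which also include Cyp51, Msmo1 and Lss, passed without the pancreas-carrying arrays (adjusted p = 0.0599 to 0.0864). Proliferation genes gave -0.14 in the acute comparison, with 21 of 23 lower in mean and 0 at an unadjusted p under 0.05. In the late one they gave +0.61, with 16 higher at an unadjusted p under 0.05, against 6.9% of all probes. The replicative helicase subunit Mcm4 was called (+0.58, adjusted p = 0.037), a call lost without the pancreas-carrying arrays (adjusted p = 0.108). Smooth muscle genes gave a median of -0.17, with 0 of 16 at an unadjusted p under 0.05, and the visceral actin Actg2 differed by -0.48, -0.98 to 0.01.

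**Figure D4:**
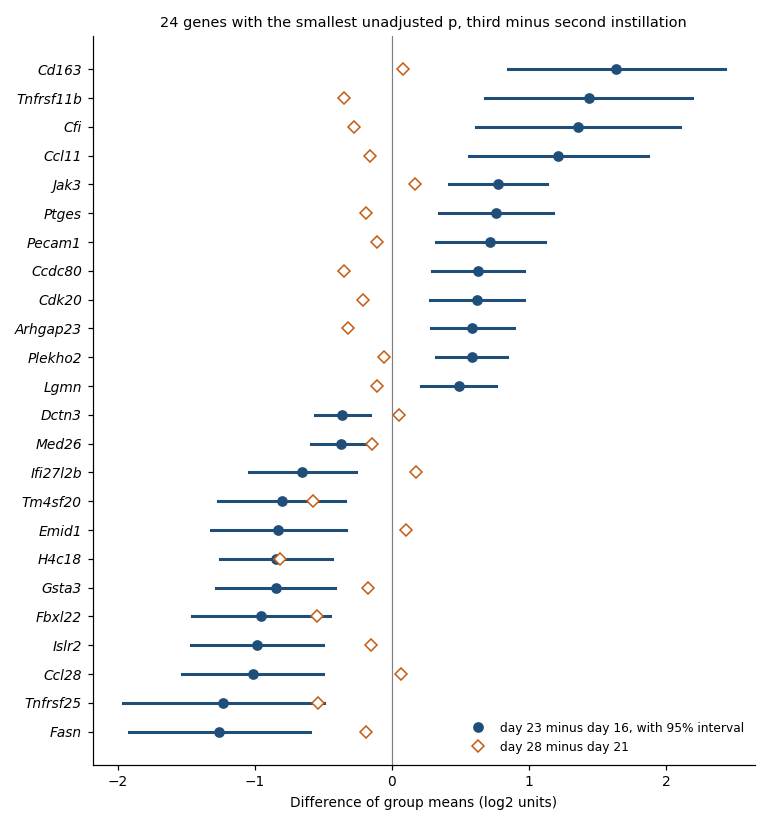
Log2 difference of day 23 less day 16 with its 95% interval (x axis, log2 units) for the 24 genes with the smallest p-values, 12 in each direction, among genes above background in at least 3 mice of a group, with the late difference beside it. Cfi was not above background on day 16, so its plotted difference is no fold. All adjusted p-values lie between 0.327 and 0.609, and 2 of the 12 higher and 8 of the 12 lower genes have the same sign late.

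Beyond the lists, the 12 genes with the smallest p in each direction among those above background in at least 3 mice of either day had adjusted p-values from 0.327 to 0.609, and none passed the test. The groups did not overlap for 5 of the 12 with a higher mean and 7 of the 12 with a lower one, which follows in part from their choice. On the higher side, the kinase Jak3, which signals for the interleukin 2 receptor family, read 6.3, 6.2, 6.2, 6.5 and 6.9 on day 16 and 7.7, 7.0, 7.2, 6.9 and 7.3 on day 23 (+0.77, 95% interval 0.41 to 1.13, adjusted p = 0.405). Osteoprotegerin (Tnfrsf11b), a decoy receptor for RANKL, read 7.2, 6.4, 7.9, 6.6 and 7.3 on day 16 and 10.2, 8.1, 8.5, 7.5 and 8.4 on day 23 (+1.44, 95% interval 0.68 to 2.19, adjusted p = 0.522), with mouse 1 highest. The pleckstrin homology protein Plekho2 read 7.6, 7.7, 7.7, 8.0 and 7.7 on day 16 and 8.5, 8.0, 8.3, 8.3 and 8.7 on day 23 (+0.58, 95% interval 0.32 to 0.84, adjusted p = 0.327). Complement factor I (Cfi), which cleaves C3b and C4b, was not above background on day 16 and was at least 1.26-fold higher in mean on day 23. Prostaglandin E synthase (Ptges) differed by +0.76, the lysosomal protease legumain (Lgmn) by +0.49, the secreted matrix protein Ccdc80 by +0.63 and the kinase Cdk20 by +0.62.

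On the lower side, the fatty acid synthase Fasn read 5.5, 5.3, 5.5, 4.6 and 5.9 on day 16 and 4.8, 4.3, 4.3, 2.3 and 4.8 on day 23 (-1.26, 95% interval -1.92 to -0.60, adjusted p = 0.522), with mouse 4 at the floor. The death receptor Tnfrsf25, which binds the cytokine TL1A, read 6.1, 5.3, 6.0, 5.9 and 5.4 on day 16 and 2.9, 4.7, 5.4, 5.6 and 3.8 on day 23 (-1.23, 95% interval -1.97 to -0.50, adjusted p = 0.609). The interferon-inducible Ifi27l2b read 7.3, 7.93, 7.82, 7.81 and 8.03 on day 16 and 7.3, 6.88, 7.18, 6.98 and 7.28 on day 23, with no overlap (-0.65, 95% interval -1.05 to -0.26, adjusted p = 0.609), and here mice 4 and 5 of day 23 were as low as the other mice, unlike for Cxcl9. The histone H4c18 differed by -0.85, the neuronal membrane protein Islr2 by -0.99, the F-box protein Fbxl22 by -0.96, the tetraspanin-like Tm4sf20 by -0.81, the matrix protein Emid1 by -0.83, the Mediator subunit Med26 by -0.37 and the dynactin subunit Dctn3 by -0.36. Among genes with several tested probes, the dimmer probes of Cd163 (-0.34), Ptges (-0.12), Gsta3 (+0.03), Emid1 (+0.11) and Ifng (+0.21) and 1 of the 4 Cdk20 probes (-0.13) had the opposite sign, and the other probes of Chil3 gave +3.88 and +2.06. The late comparison, on other mice, had the same sign for 2 of the 12 higher genes and 8 of the 12 lower. Over all 291 genes higher and 345 lower at an unadjusted p under 0.05 among the 9373 above background, 112 and 166 had the same sign late, where 49.2% of genes were positive and 50.4% negative.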

How the data were processed

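RNA from distal colon of single mice was hybridised to Illumina MouseRef-8 bead arrays (1 colour). The authors extracted background-subtracted bead signals, quantile normalised them and deposited log2 values, 1 column per mouse, which were used here. The deposited values carry neither the floor of 5 linear units nor the probe filter that the methods describe. The floor was applied again. The filter used here is not that of the study: it kept 21110 probes, whereas 14285 transcripts passed in the study. The RNA kit and the extraction software are named differently in the methods and in the labels, and the chip on which each mouse was placed was not analysed here. A further deposited table had 68 columns that could not be matched to mice and were not used.

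Values were set to at least 5 (2.32 on the log2 scale), and probes above it in at least 4 of 34 arrays were tested. A model with 7 groups was fitted to all 34 arrays with limma 3.58.1 (R 4.3.3; 27 residual degrees of freedom), and p-values, from moderated statistics and two-sided, were adjusted by Benjamini-Hochberg over 21110 probes. The numbers that the labels give to mice are names of separate animals, and p-values reflect the spread between them. Of 25697 probes, 23978 had 1 gene symbol in the platform annotation, 1719 had none and 0 had several, and each gene was represented by its brightest tested probe (14010 genes). Where no mouse of the lower group exceeded background, a lower bound of the fold is given, taking the brighter group's mean against background or the measured level, whichever was higher, and none where that bound is under 1.

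The comparisons, the gene lists and their members were chosen with earlier results of these data known. Named genes were up to 12 in each direction by unadjusted p among genes above background in at least 3 of 5 mice of the brighter day (no such gene having been called), up to 4 members per list by the same p, and a short set of genes of general interest. Further list members shown with their values (for example Cd74, S100a8, Fcrla, Clec4e, Tnc) were added after their values were seen. Alternatives were another floor, an offset, other probe filters, fits on fewer groups, a variance trend, array weights, the mouse number as a replicate block, a fold threshold, renormalisation, probe means, leaving out each mouse, and leaving out arrays with muscle or pancreas transcripts. The last was chosen after seeing the data. The fit was also run on simulated arrays with known differences. These drew each probe independently with the same spread in all groups. They therefore lack the wider spread of day 23 and the arrays with transcripts of other tissues. Promoters were read from a RefSeq table (GRCm38.p6) with Python 3.11.15.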

Additional observations from a re-analysis of the deposited data

Results flagged for a closer look

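Single mice that stood apart within their group of 5 were looked for in 150 sets of values, by the gap of the highest or lowest mouse to its neighbour as a share of the group's range, and 12 passed the 95% limit. Chance alone marks about 1 in 20 groups. Day 23 mouse 1 was low in the B cell list (a share of 0.943 of the range), in Ang4 (0.908) and in Ccl28 (0.715). Day 23 mouse 4 was low in Fasn (0.783), in Cd163 (0.717) and in the coagulation list (0.8), and day 23 mouse 5 was high in Krt13 (0.73), a keratin of squamous epithelium. On day 16, mouse 4 was high in Cd163 (0.737) and Plekho2 (0.741), mouse 3 was high in the acute phase list (0.842) and low in Mcpt4 (0.728), and mouse 2 was the only mouse with Cxcl2 above the floor (1). That Cxcl2 value, 3.9, was still below background.

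Dpysl3 was the 1 gene for which the acute and the late difference were themselves found to differ, by +1.04 (adjusted p = 0.0478, limma), with a mean higher on day 23 than on day 16 and lower on day 28 than on day 21. The call was borderline. No probe passed this test without the pancreas-carrying arrays, with the mouse number as a replicate block, or when any of day 23 mice 1 to 4 was left out. The same held when any of day 16 mice 2, 4 and 5, day 21 mice 1 and 3, or day 28 mice 1, 3, 4 and 5 was left out.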

How the results depend on the processing

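For day 23 against day 16, the count of called probes was 0 higher and 1 lower in the main fit, and 0 to 4 higher and 0 to 2 lower over 16 other settings. The call of Arf4 was lost with a floor of 20, with 16 added in place of a floor, and where only the brightest probes or probes above background were tested (0 lower). A fit on the compared groups alone gave 1 higher and 2 lower, array weights 1 and 1, leaving out arrays with skeletal muscle 1 and 1, and leaving out arrays with exocrine pancreas 4 and 1. Leaving out single mice gave 0 to 2 higher (2 without day 23 mouse 1) and 0 to 2 lower (2 without day 16 mouse 3, 0 without day 16 mouse 5). Over all these settings 857 to 1488 probes had an unadjusted p under 0.05. The counts for day 28 against day 21 (31 higher, 34 lower) moved to 62 and 66 with a floor of 20, 42 and 48 with 16 added, 55 and 56 without a filter, 95 and 103 with the brightest probes, 78 and 90 with probes above background, 3 and 4 in a fit on the compared groups alone, 19 and 19 on groups of the same time after dosing, 86 and 113 with a variance trend, 161 and 172 with array weights, 20 higher with a fold of at least 1.5, 19 lower with probe means, 1 and 3 without arrays with muscle, and 9 and 15 without arrays with pancreas. They were 0 to 116 higher and 2 to 142 lower without single mice, being 116 and 142 without day 21 mouse 4, 0 and 4 without day 21 mouse 5, and 1 and 2 without day 28 mouse 1. For the test of the acute less the late difference (1 probe), the counts were 9 with a floor of 20, 8 with the brightest probes, 8 with probes above background, 3 on the compared groups alone, 15 with a variance trend, 11 with array weights, 2 without arrays with muscle, 0 without arrays with pancreas and 0 to 38 without single mice (31 without day 21 mouse 4, 38 without day 23 mouse 5). The comparison of the flares (0 probes) gave 1 without arrays with pancreas and 0 to 1 without single mice (1 without day 14 mouse 1, 1 without day 23 mouse 1). The causes were not tested.

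With the mouse number as a replicate block, 0 probes were higher and 1 lower on day 23, 14 higher and 19 lower on day 28, and 0 passed for the difference of the differences. The numbers do not pair the animals: deviations of same-numbered mice correlated at -0.0341 to 0.0454, with 2 of 5 highest with their own number, and at -0.0465 to 0.108 in the late groups.

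Of 149 gene values, 17 changed sign under some setting. With a floor of 20, Myh1 gave 0.0517. With 16 added, Mcpt4 gave 0.0912, and with array weights 0.461, and Myh8 gave 0.0453 as a mean of probes. Without the arrays with exocrine pancreas, Mcpt4 gave 1.42, Retnlb 0.0478, Ang4 0.325, Cd86 0.0158, Ltb 0.356, Fcrla 0.454, Blk 0.278, Cd3e 0.112, Cd8b1 0.0205, Aif1 0.0798, Il17rb 0.0493, Fdps 0.0148 and Muc1 -0.299. Without single mice, Mcpt4 ranged from -0.571 to 1.00, Mcpt1 from -0.293 to 0.892, Itln1 from -0.230 to 0.718, Retnlb from -0.302 to 0.0424, Ang4 from -1.15 to 0.405, Ltb from -1.05 to 0.201, Fcrla from -1.23 to 0.347, Blk from -1.05 to 0.207 and Muc1 from -0.0183 to 0.745. Of 28 list medians, 9 changed sign under some setting. Without the arrays with pancreas 5 did, those of B cells (0.356), T cells (0.284), type 2 cytokines (0.0493), epithelial defence (0.170) and exocrine pancreas (-0.0592), while mast cells moved to 1.01, MHC class II to -0.0809 and endothelium to 0.158. Without day 23 mouse 1, B cells gave 0.347, T cells 0.103 and epithelial defence 0.136. The CC chemokine, goblet cell, skeletal muscle and monocyte medians, all between -0.1 and 0.11, turned under other settings. Signal over background limits the dim genes, among them Arf4, F10, Il1a, Il4 and Ifng.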
